A study of Homo sapiens with 3 samples.

Results

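Cells make energy from glucose by glycolysis, a chain of enzymes that ends in pyruvate, which is either sent to the mitochondria or turned into lactate and exported. Much of this chain, and genes for blood vessel growth, pH control and removal of mitochondria, can be switched on by the hypoxia-inducible factors (HIF), transcription factors whose alpha subunits are destroyed in well-oxygenated cells after prolyl hydroxylases mark them. The epidermis has no blood vessels, and keratinocytes are known for a high rate of glycolysis. The set described here holds 40 genes taken by name, with no measured value in the rule, out of 23595 genes measured, although earlier results of these data were known when the list was drawn up: glucose transporters, glycolytic enzymes, lactate and pyruvate genes, the HIF subunits with their hydroxylases, and HIF targets outside glycolysis. All 40 were found by gene name. PKM2, the pyruvate kinase gene, now carries the symbol PKM, and VEGFA carries its older name VEGF in the array annotation and was found by its gene number. A total of 94 transcripts read the set, with 1 transcript for 8 members and more for 32. The 8 were SLC2A1, HK1, PFKP, ENO2, PKM, LDHA, EPAS1 and CA9.

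The cells were HaCaT, a line that arose by spontaneous immortalization of human skin keratinocytes, grown in RPMI-1640 medium with fetal bovine serum. Per the labels, 1 culture was untreated (control), another received all-trans retinoic acid (ATRA, the active form of vitamin A) at 1 µM, and the last received ATRA plus nicotinamide (ATRA+NIC), the amide form of niacin. Treatment lasted 36 h. The labels give the ATRA dose once for the whole series and do not say that it held for the ATRA+NIC culture too, so the 2 treated cultures may not differ in nicotinamide alone. The sources used here state no nicotinamide dose, no sample received nicotinamide alone, and no label names a low-oxygen treatment. Each group holds 1 single-colour array, so no value below has an error between cultures, no test is possible, and each difference describes these 3 arrays. ATRA+NIC against ATRA and ATRA against control share the ATRA array, so a high value there enters both with opposite sign. The other pairs of comparisons share an array in the same way.

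The median transcript intensity was 297.9 to 302.3 on the 3 arrays, and random probes that match no human transcript lay at 18.4 to 19.6. All 12 keratinocyte markers examined passed the filter described next. A gene passed when its level, the mean of the log2 intensities of its transcripts, was at or above 7.95 on at least 1 array, an intensity of 246.5. Of the members 37 passed, and SLC2A3, PDK4 and CA12 did not. A difference was called when it reached 2-fold. The scatter between transcripts of the same gene was the only measure of error here. It was 0.31 when ATRA was set against control, 0.30 for ATRA+NIC against ATRA and 0.24 for ATRA+NIC against control. These values are pooled SDs of log2 differences over 7074 genes. They can hold real differences between transcripts beside technical scatter. Error between cultures, and error shared by all transcripts of an array, are not in them.

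**Figure D1:**
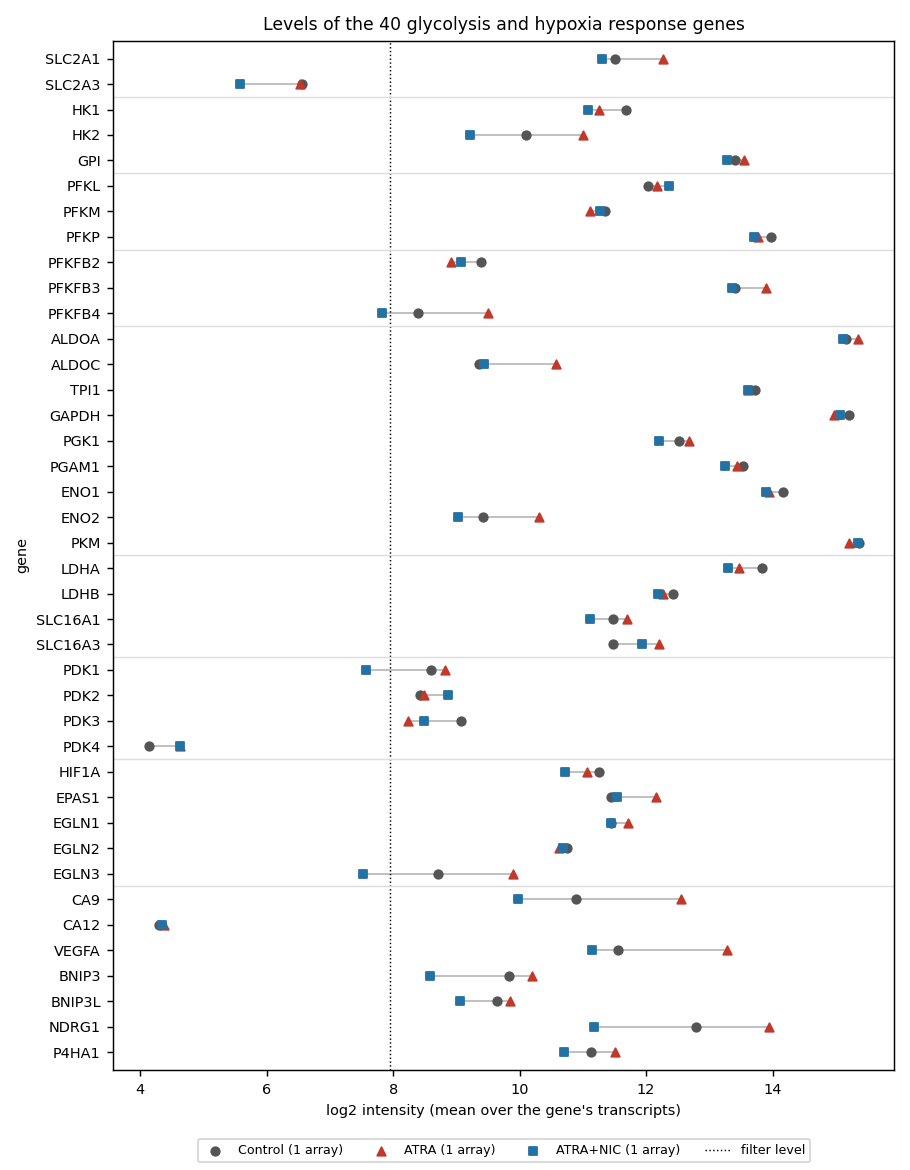
Log2 intensity (horizontal axis) of each of the 40 genes on each of the 3 arrays (control, ATRA, ATRA+NIC), 1 point per array, with pale lines between groups of like function and a dotted line at the filter level of 7.95. Points are to be compared within a gene: the 3 arrays lie close together for PKM, TPI1 and ENO1 and far apart for NDRG1, CA9, EGLN3 and VEGFA, with the ATRA+NIC array lowest in these 4.

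Of the passing members, 10 reached 2-fold in at least 1 comparison, and the other 27 did not. In ATRA against control, 6 of 37 members lay 2-fold or more above the control and 0 below it, where 3.83% of all 12467 passing genes were higher and 2.06% lower. The 6 were VEGFA, CA9, ALDOC, EGLN3, NDRG1 and PFKFB4. In ATRA+NIC against ATRA, 10 of 37 were at least 2-fold lower and 0 higher, against a background of 3.74% lower and 1.35% higher. The same 6 genes and HK2, BNIP3, ENO2 and PDK1 made up the 10. In ATRA+NIC against control, 4 of 37 were at least 2-fold lower and 0 higher, against 0.971% and 1.03%, and these were NDRG1, BNIP3, EGLN3 and PDK1. These are RNA measurements of whole cultures, in which fewer cells expressing a gene and less RNA per cell cannot be told apart.

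At 1.5-fold, a threshold added after the data were seen, 11 members were higher and 1 was lower in ATRA against control, beside 9.90% and 8.99% of all genes. The 1 lower member was PDK3. In ATRA+NIC against ATRA 0 were higher and 15 lower, beside 7.88% and 9.47%, and in ATRA+NIC against control 0 were higher and 8 lower, beside 3.96% and 3.87%. Without any threshold, 23 of 37 members were higher with ATRA than in the control, beside 45.6% of all genes, and 28 of 37 were lower with ATRA+NIC than with ATRA, beside 44.2%.

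The median log2 difference of the members was 0.20 in ATRA against control, −0.28 for ATRA+NIC against ATRA and −0.27 for ATRA+NIC against control, where all passing genes had medians of −0.04, 0.05 and −0.01. In ATRA+NIC against control 32 of 37 members were lower, beside 51.2% of all genes. The order with ATRA highest and ATRA+NIC lowest was seen in 18 of 37 members and in 17.4% of all genes. It was seen in all 6 passing HIF targets outside glycolysis, and in 10 of the 26 passing genes of glucose and pyruvate metabolism. Transcripts of a gene mostly went one way: among the 29 passing members with several transcripts, all of them had the same sign in 23 members in ATRA against control, in 22 in ATRA+NIC against ATRA and in 26 in ATRA+NIC against control. The shares among all genes were 65.0%, 66.8% and 62.1%.

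**Figure D2:**
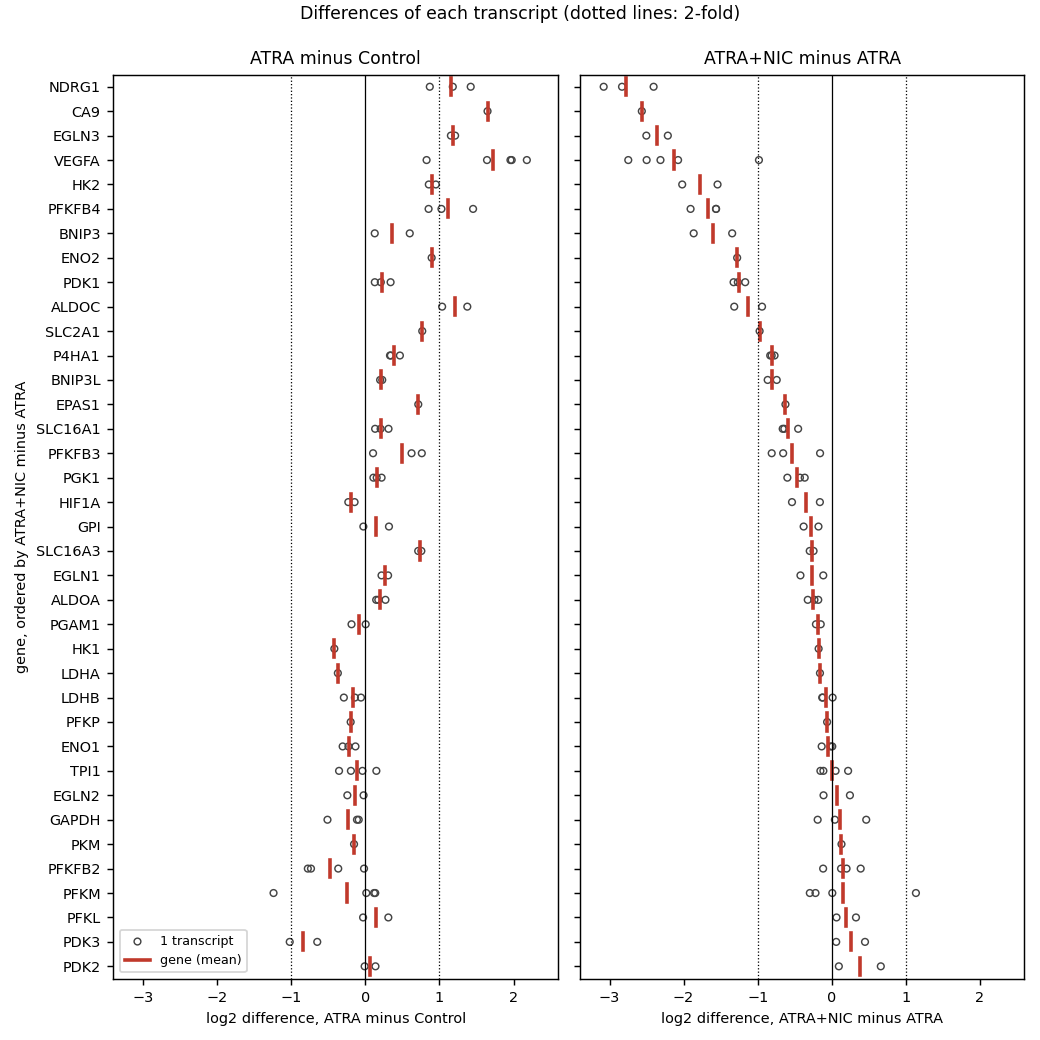
Log2 differences (horizontal axes) of single transcripts (open circles) and of the gene mean (red bars) for the 37 passing members, ATRA minus control on the left and ATRA+NIC minus ATRA on the right, ordered by the latter, with dotted lines at 2-fold. In the right panel every transcript of the 10 uppermost genes lies below 0, and the right panel's single outlying transcript above 1 belongs to PFKM.

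NDRG1, a stress-responsive gene that hypoxia induces in many cell types, had an intensity of 7059 in the control, 15746 with ATRA and 2305 with ATRA+NIC. It was thus 2.23-fold higher with ATRA than in the control, 6.83-fold lower with ATRA+NIC than with ATRA, and 3.06-fold lower with ATRA+NIC than in the control. Its 3 transcripts had log2 differences of −3.08, −2.83 and −2.41 for ATRA+NIC against ATRA. With its brightest transcript alone, ATRA against control came to 0.87, under 2-fold. CA9 encodes carbonic anhydrase IX, a membrane enzyme that helps cells export acid and a widely used marker of hypoxia. Its intensities were 1905, 5975 and 1010 in the same order, read by a single transcript. It was 3.14-fold higher with ATRA than in the control and 5.91-fold lower with ATRA+NIC than with ATRA. Both genes were lower with ATRA+NIC than in untreated cells, CA9 by 1.89-fold.

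VEGFA encodes vascular endothelial growth factor A, the main signal for growth of blood vessels, which keratinocytes secrete. Its gene level was 3014 in the control, 9905 with ATRA and 2274 with ATRA+NIC, a 3.29-fold higher and then a 4.36-fold lower value. The 5 transcripts did not differ to the same degree. For ATRA against control the log2 differences ran from 0.83 to 2.18, and for ATRA+NIC against ATRA from −2.75 to −0.98. All 5 were higher with ATRA and lower with ATRA+NIC, and the transcript with the smallest differences was the same in both comparisons. With ATRA+NIC the level of VEGFA was 1.33-fold under the control.

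BNIP3 and BNIP3L encode related proteins of the outer mitochondrial membrane that mark mitochondria for removal. BNIP3 had intensities of 908.6, 1169 and 384.4, so it was 1.29-fold higher with ATRA than in the control and 3.04-fold lower with ATRA+NIC than with ATRA. Against the control it was 2.36-fold lower with ATRA+NIC. BNIP3L followed at a smaller size, with 798.4, 925.9 and 530.2 and a 1.75-fold lower value with ATRA+NIC than with ATRA. P4HA1, which encodes a subunit of the collagen prolyl hydroxylase, had 2230, 2903 and 1662. It too was 1.75-fold lower with ATRA+NIC than with ATRA, and its 3 transcripts lay within −0.83 to −0.77. CA12, the gene of another carbonic anhydrase, read 19.6, 20.7 and 20.4, near the random probes on all arrays.

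The genes of the HIF alpha subunits did not reach 2-fold. HIF1A, which encodes the alpha subunit of HIF active in most cells, had intensities of 2431, 2135 and 1676. That is 1.14-fold lower with ATRA than in the control and 1.27-fold lower with ATRA+NIC than with ATRA. EPAS1, the gene of the alpha subunit also called HIF-2 alpha, had 2787, 4573 and 2965, a level 1.64-fold higher with ATRA than in the control and 1.54-fold lower with ATRA+NIC than with ATRA. HIF alpha subunits are known to be regulated mainly as proteins, which arrays do not measure. Of the prolyl hydroxylase genes, EGLN3, which is itself a HIF target, stood far from the other two. It had 417.1, 947.1 and 184.7, which made it 2.27-fold higher with ATRA than in the control and 5.13-fold lower with ATRA+NIC than with ATRA. Its 2 transcripts gave −2.50 and −2.21 in the latter comparison. It was 2.26-fold lower with ATRA+NIC than in the control, a difference of −0.86 with an offset of 100 before log2. EGLN1, the main oxygen sensor among these enzymes, had 2797, 3355 and 2785, and EGLN2 had 1729, 1576 and 1651.

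At the entry of glucose, SLC2A1, the gene of the glucose transporter GLUT1, had 2900 in the control, 4938 with ATRA and 2514 with ATRA+NIC. It was 1.70-fold higher with ATRA and 1.96-fold lower with ATRA+NIC than with ATRA, just short of 2-fold. SLC2A3, a second transporter gene, was under the filter at 94.6, 91.7 and 47.6, and its transcripts disagreed, with differences of −1.92 and 0.03 for ATRA+NIC against ATRA. Its sequence is nearly identical to SLC2A14, so these probes are uncertain. Hexokinases trap glucose in the cell as its phosphate. HK2, the inducible hexokinase gene, had 1093, 2045 and 595.2, which is 1.87-fold higher with ATRA than in the control and 3.44-fold lower with ATRA+NIC than with ATRA. HK1, the constitutive form, had 3283, 2456 and 2172, a 1.51-fold lower value with ATRA+NIC than in the control and no ATRA peak. GPI, the next enzyme gene, differed by 0.28 or less on the log2 scale in all 3 comparisons.

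Phosphofructokinase catalyses the committed step of glycolysis, and PFKFB enzymes make and break the sugar phosphate that activates it. PFKFB4 had intensities of 334.2, 722.1 and 225.8. It was 2.16-fold higher with ATRA than in the control and 3.20-fold lower with ATRA+NIC than with ATRA, and all 3 of its transcripts went the same way. With an offset of 100 before log2, its difference between ATRA and control was 0.92, under 2-fold. PFKFB3 had 10796, 15231 and 10463, a 1.41-fold higher and then a 1.46-fold lower value. Its brightest transcript hardly took part, at 0.10 and −0.16, while the other 2 lay at 0.62 and 0.76 for ATRA against control. PFKFB2 went the other way in ATRA against control, 1.39-fold lower at 671.5, 483.6 and 536.4. The subunit genes PFKL, PFKM and PFKP differed by at most 0.34 on the log2 scale in any comparison. PFKP had 16037, 13978 and 13379, and 1 dim transcript of PFKM, at −1.24 in ATRA against control, set that gene apart from its other 3 transcripts at 0.01 to 0.13.

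In the later steps of glycolysis the isoform genes ALDOC and ENO2 differed, and the main forms of the same enzymes did not reach 2-fold. ALDOC, an aldolase gene best known from brain, had 658.8, 1520 and 695.0. It was 2.31-fold higher with ATRA than in the control and 2.19-fold lower with ATRA+NIC than with ATRA, although its brightest transcript alone gave −0.94 in the latter. ALDOA, the main aldolase gene, had 36593, 41957 and 35359, a 1.19-fold lower value with ATRA+NIC than with ATRA. ENO2, an enolase gene best known from neurons, had 681.7, 1267 and 522.9, read by a single transcript. It was 1.86-fold higher with ATRA than in the control and 2.42-fold lower with ATRA+NIC than with ATRA. ENO1, the main enolase gene, had 18463, 15821 and 15293, a 1.21-fold lower value with ATRA+NIC than in the control.

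PGK1, which encodes the first ATP-yielding enzyme of the chain, had 5852, 6540 and 4738 and was 1.38-fold lower with ATRA+NIC than with ATRA in the mean of 3 transcripts that all went down. TPI1, PGAM1 and GAPDH differed by at most 0.27 on the log2 scale in any comparison. The transcripts of GAPDH spread from −0.19 to 0.47 for ATRA+NIC against ATRA. Probes for GAPDH and PGAM1 may also bind near-identical pseudogene or retrogene copies. PKM had 42208, 37969 and 41581, within 1.11-fold on all arrays. The levels of ALDOA, GAPDH and PKM came close to the highest intensity of the ATRA array, 52595, and whether these probes were close to saturation was not tested.

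Pyruvate is turned into lactate by lactate dehydrogenase, made of A and B subunits, and lactate leaves the cell through monocarboxylate transporters. LDHA, a classical HIF target read here by a single transcript, did not follow the pattern of CA9 and VEGFA. It had 14593, 11284 and 10102, highest in the control, and was 1.44-fold lower with ATRA+NIC than in the control. LDHB had 5522, 4931 and 4665. SLC16A3, the gene of the lactate exporter MCT4, had 2848, 4738 and 3925. It was 1.66-fold higher with ATRA than in the control and stayed 1.38-fold above the control with ATRA+NIC. SLC16A1, the gene of MCT1, had 2855, 3319 and 2211, a log2 difference of −0.59 between ATRA+NIC and ATRA. The 2 transporter genes therefore lay on opposite sides of the control on the ATRA+NIC array.

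Pyruvate dehydrogenase kinases hold pyruvate out of the mitochondrial citric acid cycle, and PDK1 is a HIF-induced form. PDK1 had intensities of 387.7, 453.3 and 190.1. It was 1.17-fold higher with ATRA than in the control, 2.39-fold lower with ATRA+NIC than with ATRA and 2.04-fold lower than in the control. Its 3 transcripts lay between −1.33 and −1.17 for ATRA+NIC against ATRA. The call against the control ended with the median over transcripts, at −0.98, and both calls ended with an offset of 100 before log2, at −0.93 and −0.75. PDK2 had 344.9, 360.4 and 468.5, highest with ATRA+NIC by 1.36-fold against the control. PDK3 had 536.5, 300.7 and 358.7, a 1.78-fold lower value with ATRA than in the control. PDK4 was under the filter at 17.6, 24.8 and 24.6.

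The 10 genes that were at least 2-fold lower with ATRA+NIC than with ATRA were all higher with ATRA than in the control, by 1.17-fold to 3.29-fold. All of them except ALDOC were also lower with ATRA+NIC than in the control. The choice of these genes by ATRA+NIC against ATRA favours a high ATRA value and a low ATRA+NIC value. Neither direction is therefore separate support. For PDK1 the log2 difference between ATRA and control, 0.23, lay under the scatter between transcripts of 0.31. All transcripts of the 10 genes were at least 1.5-fold lower with ATRA+NIC than with ATRA. The other 27 passing members had log2 differences of −0.97 to 0.38 in that comparison. In the hg18 annotation of the files, NDRG1 lies on chromosome 8 at 134318595 to 134378680, CA9 on chromosome 9 at 35663914 to 35671152, EGLN3 on chromosome 14 at 33463171 to 33490037, VEGFA on chromosome 6 at 43845930 to 43862202 and HK2 on chromosome 2 at 74913289 to 74973989. PFKFB4 lies on chromosome 3 at 48530120 to 48569327, BNIP3 on chromosome 10 at 133631193 to 133645425, ENO2 on chromosome 12 at 6893874 to 6903120, PDK1 on chromosome 2 at 173129024 to 173172108 and ALDOC on chromosome 17 at 23924259 to 23928078.

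HIF binds DNA at the hypoxia response element, whose core reads ACGTG or GCGTG. Both cores were searched on both strands, so that they can appear as CACGT or CACGC, in RefSeq promoters of build GRCh38.p14 that run from 250 bases before to 50 bases after a start. Overlapping matches, such as both strands of CACGTG, were counted once. The table held promoters for 34 of the 40 members, with 64 starts. ACGTG stood in 39.1% of these starts, in 21.4% of all 35116 starts of the table and in 25.9% of the 12468 starts of array genes that passed the filter. Either core stood in 64.1% of member starts, 48.4% of all starts and 61.5% of starts of passing genes. Counted per gene, ACGTG was present for 6 of the 8 members with a promoter that were at least 2-fold lower with ATRA+NIC than with ATRA, for 15 of the 26 other members, and for 32.7% of passing genes. Either core was present for 7 of the 8, for 24 of the 26 and for 70.2% of passing genes, so with GCGTG included the lower members did not hold the larger share. The match is one of letters and shows no binding.

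Below are the 150 bases before a start, 5′ to 3′ on the coding strand, of the 6 lower genes in which that stretch holds ACGTG. They are shown because these genes were at least 2-fold lower with ATRA+NIC than with ATRA and hold ACGTG there. Capitals mark the core matches. NDRG1 and VEGFA, also lower, had no promoter in the table, and PFKFB4 held GCGTG alone. Where several starts were listed, the first whose stretch holds ACGTG is given. The match of CA9 lies 18 bases before the start, PDK1 has matches at 17 and 8 bases, and BNIP3 holds a run of 5 matches between 143 and 100 bases. The stretches are chr9:35673778-35673927 (CA9, plus strand), chr2:172555940-172556089 (PDK1, plus strand), chr10:131981924-131982073 (BNIP3, minus strand), chr17:28576896-28577045 (ALDOC, minus strand), chr12:6914430-6914579 (ENO2, plus strand) and chr2:74833977-74834126 (HK2, plus strand).
CA9: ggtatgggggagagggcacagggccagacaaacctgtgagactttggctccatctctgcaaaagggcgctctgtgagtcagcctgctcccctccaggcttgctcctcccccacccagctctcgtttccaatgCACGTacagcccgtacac
PDK1: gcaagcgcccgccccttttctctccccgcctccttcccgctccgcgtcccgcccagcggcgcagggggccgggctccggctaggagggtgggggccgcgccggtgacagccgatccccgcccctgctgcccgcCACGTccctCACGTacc
BNIP3: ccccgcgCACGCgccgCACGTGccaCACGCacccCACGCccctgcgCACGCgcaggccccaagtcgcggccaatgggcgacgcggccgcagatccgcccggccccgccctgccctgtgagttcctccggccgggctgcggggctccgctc
ALDOC: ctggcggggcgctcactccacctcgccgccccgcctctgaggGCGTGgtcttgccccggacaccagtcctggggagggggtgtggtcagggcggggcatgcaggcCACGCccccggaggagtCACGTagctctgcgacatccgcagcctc
ENO2: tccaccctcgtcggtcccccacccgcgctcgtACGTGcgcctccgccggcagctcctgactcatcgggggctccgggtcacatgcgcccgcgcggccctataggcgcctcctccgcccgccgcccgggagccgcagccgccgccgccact
HK2: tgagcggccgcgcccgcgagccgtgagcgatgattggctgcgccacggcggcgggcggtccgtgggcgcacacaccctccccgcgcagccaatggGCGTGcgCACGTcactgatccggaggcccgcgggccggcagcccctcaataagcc

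The same letters also stood before genes that differed little. LDHA and GAPDH are shown for contrast, from chr11:18394413-18394562 and chr12:6535114-6535263, both on the plus strand. LDHA holds 2 matches in this stretch and GAPDH 1, while their log2 differences for ATRA+NIC against ATRA were −0.16 and 0.11. EGLN3, 5.13-fold lower in that comparison, had no match in its window of 300 bases.
LDHA: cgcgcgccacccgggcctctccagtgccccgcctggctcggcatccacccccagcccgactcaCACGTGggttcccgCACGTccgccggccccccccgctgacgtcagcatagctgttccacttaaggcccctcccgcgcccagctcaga
GAPDH: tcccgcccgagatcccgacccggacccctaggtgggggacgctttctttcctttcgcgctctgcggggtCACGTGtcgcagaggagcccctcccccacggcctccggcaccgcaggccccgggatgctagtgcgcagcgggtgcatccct

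**Figure D3:**
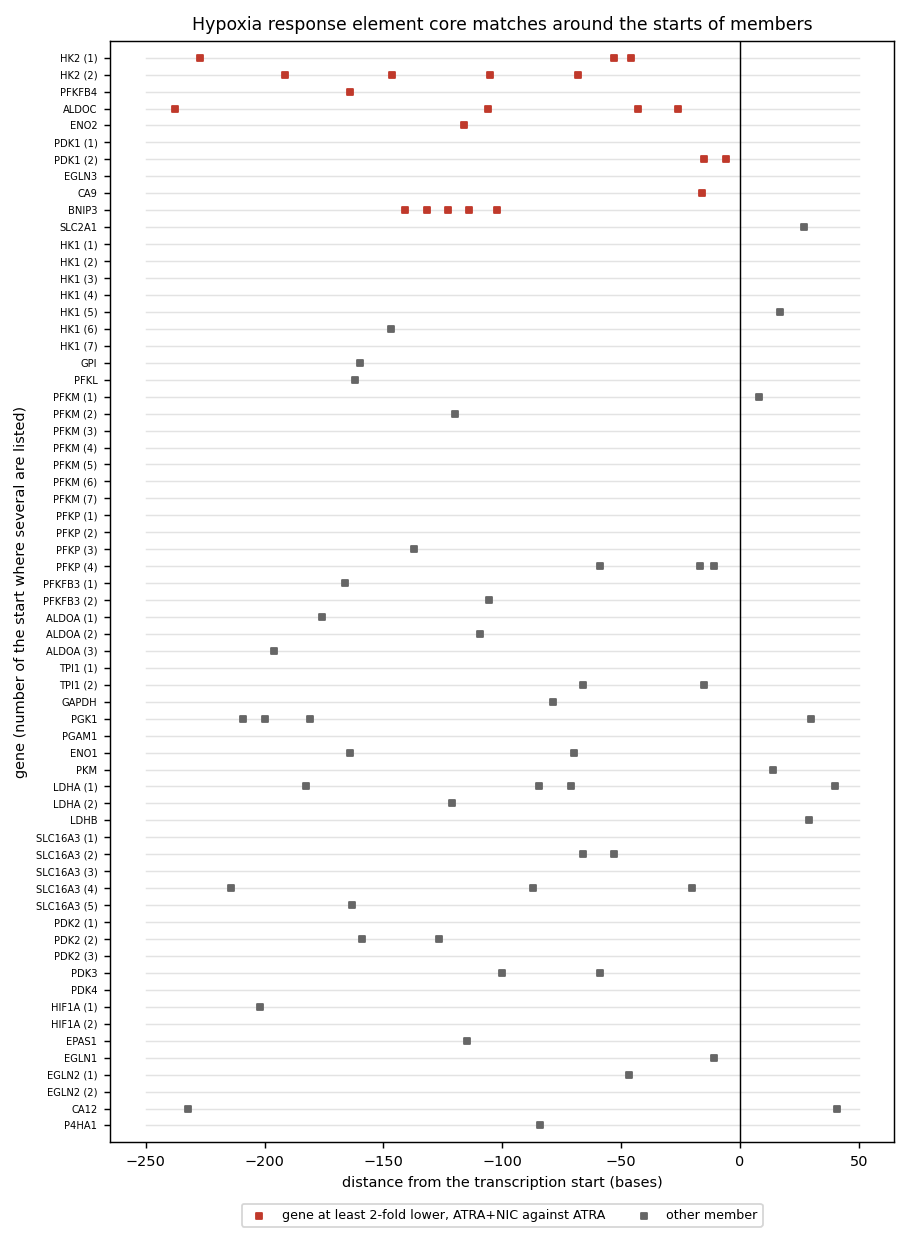
Positions of core matches (squares) in bases from the transcription start (horizontal axis, 0 at the start) for the 64 listed starts of 34 members, 1 line per start. Genes at least 2-fold lower with ATRA+NIC than with ATRA are in red and the others in grey, and matches occur in both, within 18 bases of the start in CA9 and PDK1 and further upstream in BNIP3 and ENO2.

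A list of 32 other HIF targets, none of them in the set, had medians of the same sign as the members. Among the 25 that passed the filter, 7 reached 2-fold in the upward direction in ATRA against control and 0 in the other, and the median log2 difference was 0.59. In ATRA+NIC against ATRA 9 of 25 were at least 2-fold lower and 0 higher, with a median of −0.61. Of all passing genes, 3.83% were higher and 2.06% lower in ATRA against control. In ATRA+NIC against ATRA 3.74% of them were lower and 1.35% higher. The greatest differences belonged to ANGPTL4, which encodes an inhibitor of lipoprotein lipase, with log2 levels of 8.52 in the control, 10.63 with ATRA and 7.77 with ATRA+NIC. STC1, which encodes the hormone stanniocalcin 1, had 7.25, 8.71 and 6.62. KDM3A, a histone demethylase gene, had 10.20, 11.73 and 9.82. STC2 had 11.05, 12.58 and 10.71, and ANKRD37 7.90, 9.29 and 7.49. STC1 and ANKRD37 passed the filter on the ATRA array alone. Their high values there admitted them to both counts, so these genes give no separate support. The order with ATRA highest and ATRA+NIC lowest was seen in 16 of the 25, beside 17.4% of all passing genes. BHLHE41, a clock-related repressor gene named after its values were seen, did not have it and was highest with ATRA+NIC at 8.46, 9.54 and 10.02. It was the only one of the 25 to reach 2-fold in ATRA+NIC against control, where it was higher. Of all passing genes, 1.03% were higher and 0.971% lower there.

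**Figure D4:**
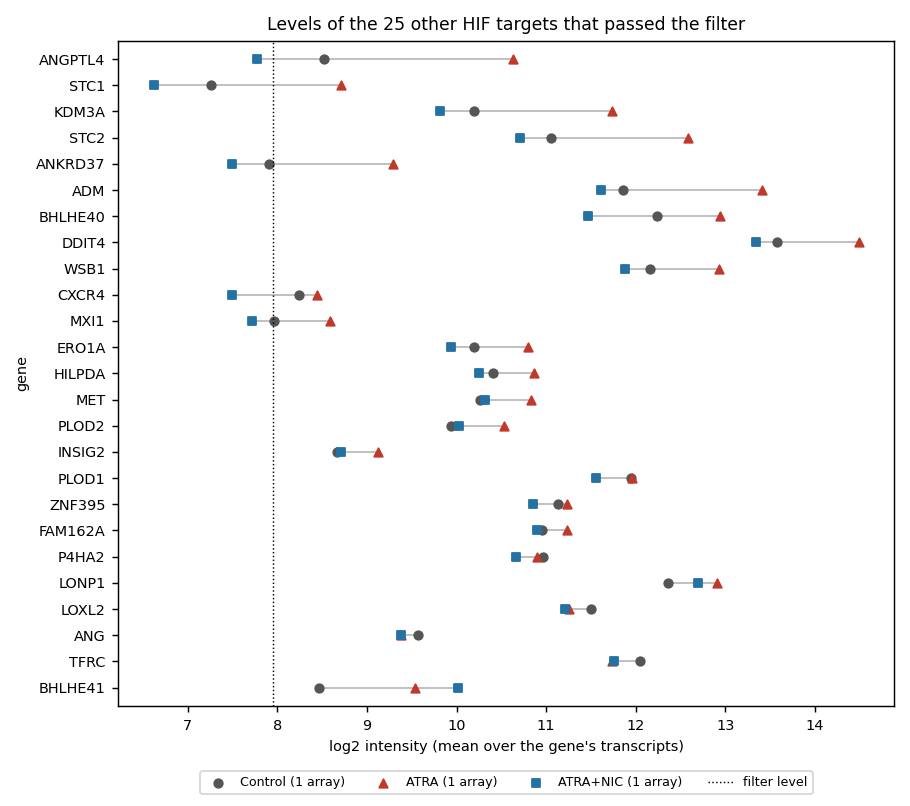
Log2 intensity (horizontal axis) of the 25 passing genes of the wider HIF target list on the 3 arrays, 1 point per array, ordered by ATRA+NIC minus ATRA. In the 9 uppermost genes the ATRA+NIC array lies at least 1 log2 unit under the ATRA array, and BHLHE41 is highest with ATRA+NIC.

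Genes of the HIF machinery outside the set had medians near 0. Among 15 further genes of the HIF machinery 13 passed the filter, with medians of −0.08 in ATRA against control and 0.01 in ATRA+NIC against ATRA. Only CITED2, a HIF-induced gene whose product competes with HIF for its coactivators, reached 2-fold: its log2 levels were 8.77, 10.40 and 8.94. That made 1 of 13 higher in ATRA against control, beside 3.83% of all passing genes. In ATRA+NIC against ATRA it made 1 of 13 lower, beside 3.74%. VHL, which marks hydroxylated HIF for destruction, had 9.75, 9.47 and 9.54, and ARNT, the partner subunit of HIF, 9.44, 9.19 and 9.28. Of the 32 genes of pyruvate dehydrogenase and the citric acid cycle, all passed the filter and none reached 2-fold in the 3 comparisons. Over all passing genes, the shares at 2-fold ran from 0.971% to 3.83% per comparison and direction. The medians of the 32 genes were −0.06, 0.07 and −0.07, with single genes between −0.68 and 0.80.

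**Figure D5:**
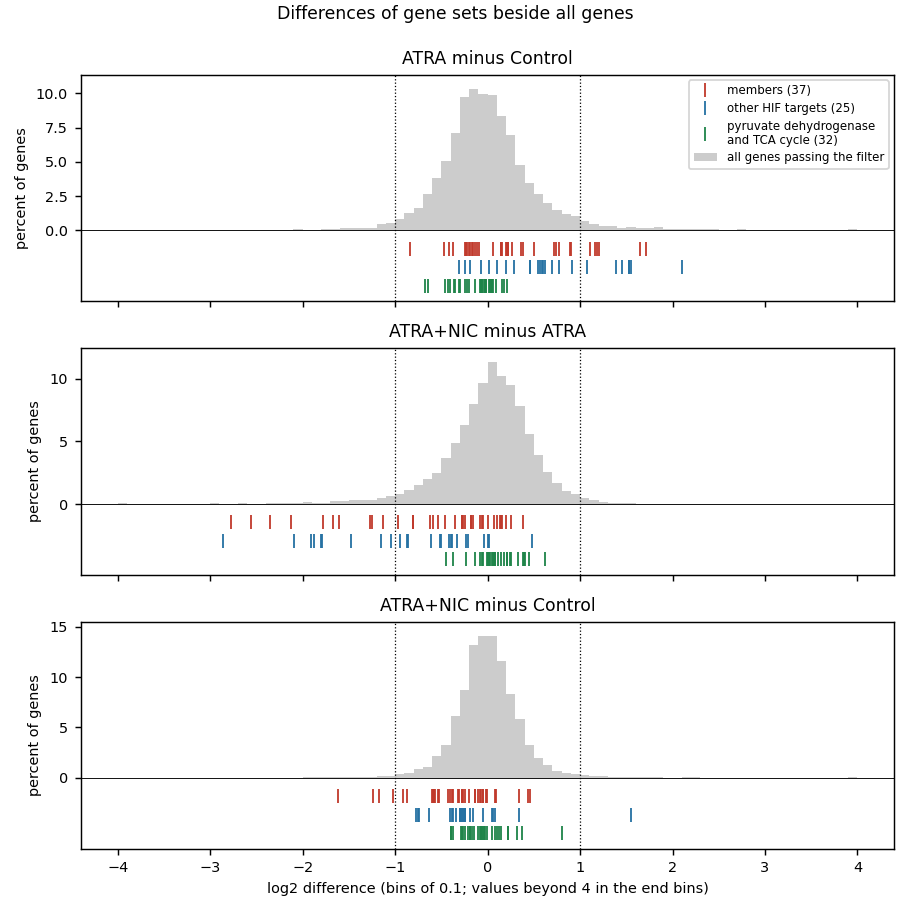
Distribution of log2 differences (horizontal axis) of all 12467 passing genes (grey bars, percent of genes per bin) in the 3 comparisons, with ticks under each for the 37 passing members, the 25 other HIF targets and the 32 genes of pyruvate dehydrogenase and the citric acid cycle. Dotted lines mark 2-fold: 10 members and 9 other HIF targets lie beyond it on the low side in ATRA+NIC minus ATRA, and no citric acid cycle gene does.

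Leukocyte markers were examined as well. Of the 9 examined 5 passed the filter, and 4 were under an intensity of 50 in the control. The order with ATRA highest and ATRA+NIC lowest was seen in 3 of the 5. All 9 were higher with ATRA than in the control and all 9 lower with ATRA+NIC than with ATRA. For the passing markers this was 5 of 5 in each, beside 45.6% and 44.2% of all passing genes. At 2-fold, 1 of the 5 was higher in ATRA against control, beside 3.83% of all passing genes. In ATRA+NIC against ATRA 3 of the 5 were lower, beside 3.74%. The summed intensity of the 9 was 2639, 5121 and 3058, so with ATRA+NIC it stayed above the control. PTPRC, which defines leukocytes, had log2 levels of 5.07, 7.24 and 4.21 and did not pass the filter. Its level with ATRA+NIC was near the random probes. The summed intensity of the 12 keratinocyte markers was 149252, 111786 and 99291, and single markers went different ways. KRT5, a keratin of basal keratinocytes, had 29746, 10041 and 10009, lower in both treated cultures. TP63, a transcription factor gene of basal keratinocytes, had 4217, 5913 and 2193, and DSG3, a gene of cell adhesion, had 1542, 2914 and 1147. Both were over 2-fold lower with ATRA+NIC than with ATRA, at 2.70-fold and 2.54-fold. Both were highest with ATRA and lowest with ATRA+NIC, an order that none of the other keratinocyte markers had. It was thus seen in 2 of 12 of these markers, in 18 of 37 members and in 17.4% of all passing genes. Of 9 fibroblast markers 2 passed the filter, with a sum of 1913, 1806 and 2090. Of 6 melanocyte markers 1 passed, with a sum of 354, 475 and 573. Of 7 endothelial markers only CDH5, the gene of VE-cadherin, passed, and its log2 levels of 7.70, 11.31 and 11.67 were high in both treated cultures. The part of these differences in the values of the set was not tested.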

How the data were processed

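RNA of 3 HaCaT cultures, 1 per group, was labelled with Cy3 and measured on NimbleGen arrays, per the labels. The deposited intensities are RMA gene calls on a linear scale, per the file headers and names, with 3 probes for nearly all of 45033 transcripts. RMA corrects background, normalizes arrays to each other and summarises probes, so a shift of most genes would not be seen. No RMA software is named in the sources used here. A value table that the authors deposited for the series holds the same intensities for the 31275 transcripts at or above 50 on all arrays.

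Values were taken as log2 without further scaling and averaged per gene. Of 23619 gene numbers, 20230 matched a RefSeq symbol (GRCh38.p14), and other genes kept the file's name. The 2086 unnamed transcripts were left out. Coordinates of genes are on hg18. No called member had a transcript under 50, the lowest value in the value table. Python 3.11.15, numpy 2.4.6 and pandas 2.3.3 were used.

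All 40 members are described. The rule for named genes was to write out values for members that reached 2-fold and for the brightest and rate-limiting ones, and of other lists for at most 5 genes at 2-fold. 1 gene of the wider HIF target list was left out of its counts and is not reported here. Members and lists were chosen with earlier results of these data known.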

Additional observations from a re-analysis of the deposited data

How the results depend on the processing

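The members' counts at 2-fold and their medians were recomputed with no filter, a filter at the 75th percentile, the brightest transcript, the median over transcripts, an offset of 100, a floor of 50, arrays centred on their medians, and the series' value table. With the 75th percentile, which leaves 28 members, 5 were at least 2-fold lower in ATRA+NIC against ATRA and 1 in ATRA+NIC against control. The shares of all genes at that filter were 3.4% and 0.738%. An offset of 100 left 2 lower in ATRA+NIC against control, beside 0.554% of all genes. Calling at 1.5-fold, chosen after the data were seen, gave 11 higher and 1 lower member in ATRA against control and 8 lower in ATRA+NIC against control. The shares of all genes were 9.90%, 8.99% and 3.87%. The members' other counts at 2-fold stayed within 1.5 times and their medians within 0.1. Counts of orders, signs and promoter matches, and those of the other lists, were not recomputed. Single differences of 16 members were recomputed in 6 of these settings. Of 288 values 147 equalled the reported one, many because the setting could not move them (the floor, the value table, or a gene with 1 transcript). Of the 141 that differed, 130 did so by less than the scatter between transcripts, and 0 turned sign where called. Of 20 called differences 6 fell under 2-fold in some setting: NDRG1 and PFKFB4 in ATRA against control (0.87 and 0.92), ALDOC and PDK1 in ATRA+NIC against ATRA (−0.94 and −0.93), and PDK1 and EGLN3 in ATRA+NIC against control (−0.75 and −0.86). The cause was not tested. No paired analysis was possible because each group holds 1 array. PDK4 and CA12 are limited by signal near the random probes, and SLC2A3 by a level under the filter.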

Other observations

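Few genes of pathways that branch from glycolysis reached 2-fold on these arrays, and few of all passing genes did. Of 28 genes of gluconeogenesis and glycogen metabolism 19 passed the filter, with medians of −0.01 in ATRA against control and 0.07 in ATRA+NIC against ATRA. PPP1R3B, which encodes a subunit that targets protein phosphatase to glycogen, was 2.69-fold higher with ATRA than in the control and 4.08-fold lower with ATRA+NIC than with ATRA, with log2 levels of 8.23, 9.66 and 7.63. It was the only one of the 19 passing genes at 2-fold. Of all passing genes, 3.83% were at least 2-fold higher in ATRA against control and 3.74% lower in ATRA+NIC against ATRA. Shares for the other directions and comparison lay between 0.971% and 2.06%. Among 10 genes of the pentose phosphate pathway 9 passed and none reached 2-fold, with single differences between −0.48 and 0.39.

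Of 31 other isoenzymes and sugar transporters 11 passed the filter. SLC2A4, the gene of the insulin-responsive transporter GLUT4, was 2.11-fold higher with ATRA than in the control, at log2 levels of 7.07, 8.15 and 7.37. It passed the filter on the ATRA array alone, so its high value there admitted it. The differences of its 2 transcripts had an SD of 0.53, beside 0.31 pooled over genes. None of the other passing genes of that list reached 2-fold in the 3 comparisons. Of all passing genes, 3.83% were at least 2-fold higher in ATRA against control. MPC2, which encodes a subunit of the mitochondrial pyruvate carrier, was highest with ATRA+NIC at intensities of 726.2, 821.8 and 1268, and was chosen after its values were seen.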
